A study of Mus musculus with 15 samples.

Results

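Genes of cellular iron handling, 10 in all, were followed in mouse whole blood. They are Tfrc, Steap3 and Slc11a2 (uptake), Slc25a37 (import into mitochondria), Fth1, Ftl1 and Ncoa4 (storage and its turnover), Slc40a1 (export), and Ireb2 and Fbxl5 (iron sensing). They were taken by gene symbol, and all 10 were found among the 55536 genes of the deposited count table. Whole blood of 15 male C57Bl/6 mice aged 10 months had been profiled by bulk RNA sequencing. In 8 animals the labels give exposure to tributyltin (TBT), an organotin, which their mothers drank in water at a daily 0.5 mg for each kg of body weight (3.07 µM) up to weaning. The other 7 animals were vehicle controls, and the labels record a liver tumor in vehicle 3 and no tumor status for any other animal. Each library is 1 animal. No litter is given, so the p-values measure only the spread between these animals, some of which may share a mother.

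Iron enters cells bound to transferrin, is reduced and moved out of the endosome, and is then used in mitochondria for haem and iron-sulphur clusters, stored in ferritin or exported. Red cell precursors draw most of the body's iron, since they build haemoglobin. When iron is scarce, iron regulatory proteins bind a short hairpin called the iron-responsive element, which blocks translation where it lies in a 5′ UTR and protects the transcript where it lies in a 3′ UTR. Transcripts alone were measured here, so translation is not seen.

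The iron-responsive elements are shown because the kind of post-transcriptional control known for them depends on the UTR that holds them. The transcript strand of every annotated UTR was searched for a C, any 5 bases, the loop letters CAGTG with any base after them, and 5 bases able to pair with those before the loop (Watson-Crick or G with T). The search found 7 matches in 4 of the 10 genes. Of the genes with an annotated 5′ UTR, 0.148% held such a match, and of those with a 3′ UTR 0.594%, so a match is a description and not a shown binding site. Tfrc held 4 matches in its 3′ UTR, on the plus strand at chr16:32631220-32631247, chr16:32631599-32631626, chr16:32631664-32631691 and chr16:32631711-32631738. Fth1 (chr19:9982733-9982760, plus strand), Ftl1 (chr7:45459779-45459806, minus strand) and Slc40a1 (chr1:45925465-45925492, minus strand) held 1 each in the 5′ UTR. The sequences below are GRCm38 with GENCODE M21 gene models, 28 bases each, 5′ to 3′, with the 6-base loop in capitals.
Tfrc 3′ UTR match 1: attatcggaagCAGTGCcttccataatt
Tfrc 3′ UTR match 2: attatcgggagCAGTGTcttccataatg
Tfrc 3′ UTR match 3: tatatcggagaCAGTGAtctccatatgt
Tfrc 3′ UTR match 4: attatcgggaaCAGTGTttcccataatt
Fth1 5′ UTR match: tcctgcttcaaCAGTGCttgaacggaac
Ftl1 5′ UTR match: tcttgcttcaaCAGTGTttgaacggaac
Slc40a1 5′ UTR match: aacttcagctaCAGTGTtagctaagttt
No match lay in the annotated UTRs of Steap3, Slc11a2, Slc25a37, Ncoa4, Ireb2 or Fbxl5. This says only that no stretch of this annotation there met both the letters and the pairing asked for. All 5 pairs were needed with no gap, so in any of the 10 genes a hairpin with a bulge or mismatch there would be missed.

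The libraries held 6.03 M to 11.99 M counts, with haemoglobin transcripts at 28.7% to 50.8% of them. Levels are CPM (counts scaled to a fixed library total) on library totals scaled by TMM, a method that sets most genes equal between libraries, unless CPM of all counts is named. TBT 2 and TBT 8 stood apart, with TMM factors of 0.404 and 0.528, against 0.736 to 1.584 in the other 13 libraries. Their mean log2 level of erythroid markers was 11.71 and 11.12, against 8.72 to 10.21 in the other 6 TBT libraries and 9.78 to 10.32 in vehicle. Their platelet markers were likewise higher on this scale, at 9.33 and 9.20, against 6.74 to 7.44 in the other TBT libraries and 6.80 to 8.37 in vehicle. As CPM of all counts the summed platelet markers of TBT 2 (7667) lay within the vehicle range of 4567 to 8828. Those of TBT 8 (9957) lay above it. Of 20 erythroid markers 19 were found, and the 13 platelet, 9 neutrophil, 10 monocyte, 10 B cell, 10 T cell and 7 NK cell markers were all found, none at 0 in every library, as blood should show. Summed markers overlapped between TBT and vehicle in each of these lists, for example 308203 to 546983 CPM of all counts in TBT and 318315 to 472182 in vehicle for the erythroid list. Summed liver cell markers ranged over 2.89 to 662 CPM of all counts in TBT and 4.06 to 726 in vehicle, with 8 of the 9 (all but Alb) at 0 in some library. Tissue macrophage markers summed to 9.18 to 103 CPM of all counts in TBT and 15.8 to 68.5 in vehicle, with Marco, Vsig4, Vcam1 and Timd4 at 0 in some library. In bulk blood, fewer cells of a type and less RNA per cell cannot be told apart.

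The 10 genes together took 0.901% to 1.81% of all counts of a library, and Slc25a37 alone took 0.593% to 1.32%. By mean CPM of all counts Slc25a37 (8373) ranked 11 among the 55536 genes, Fth1 (1420) ranked 55, Ncoa4 (1320) 58 and Ftl1 (906) 78. Per length, as CPM of all counts per kilobase of exon over the 15 libraries, the order was led by Slc25a37 at 1391 ± 323 (SD, n = 15), Ftl1 at 676 ± 120, Fth1 at 409 ± 58.7 and Ncoa4 at 141 ± 27.4. Tfrc followed at 16.4 ± 3.49, Fbxl5 at 7.02 ± 2.96, Ireb2 at 6.05 ± 2.51, Slc40a1 at 4.16 ± 1.78, Slc11a2 at 1.35 ± 0.511 and Steap3 at 0.297 ± 0.170. The mitochondrial importer therefore stood 2.06-fold above the ferritin light chain and 4689-fold above the endosomal reductase gene per length. Each gene lay above the next in all 15 libraries, except that Fbxl5 exceeded Ireb2 in 13 and Ireb2 exceeded Slc40a1 in 14, so those neighbours did not separate cleanly. Length was the union of annotated exons, which understates a gene that uses few of them.

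The comparison of TBT with vehicle asks whether maternal exposure left a difference in adult blood. Of the 10 iron genes, 0 passed an adjusted p of 0.05 in edgeR, and 0 had an unadjusted p under 0.05. The background over 13364 tested genes was 0% past the adjusted threshold (smallest adjusted p 0.207) and 6.33% at an unadjusted p under 0.05, made up of 4.57% higher and 1.76% lower in TBT. All 10 iron genes were tested, 8 with a positive and 2 with a negative log2 fold change, beside 59.4% positive among all genes. Their median log2 fold change was 0.23, beside 0.05 over all genes. The ranges of TBT and vehicle overlapped in each of the 10, and 0.112% of all tested genes had ranges that did not overlap. DESeq2 and limma-voom with quality weights also called 0 of the 10, while calling 19 and 22 genes in all. In limma-voom 4 of the 10 had an unadjusted p under 0.05. These were Ireb2 (log2 fold change 0.24), Fbxl5 (0.33) and Slc40a1 (0.37) on the positive side and Fth1 (-0.61) on the negative side. The share of all genes at that p in limma-voom is not given here, so this count has no background beside it.

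**Figure D1:**
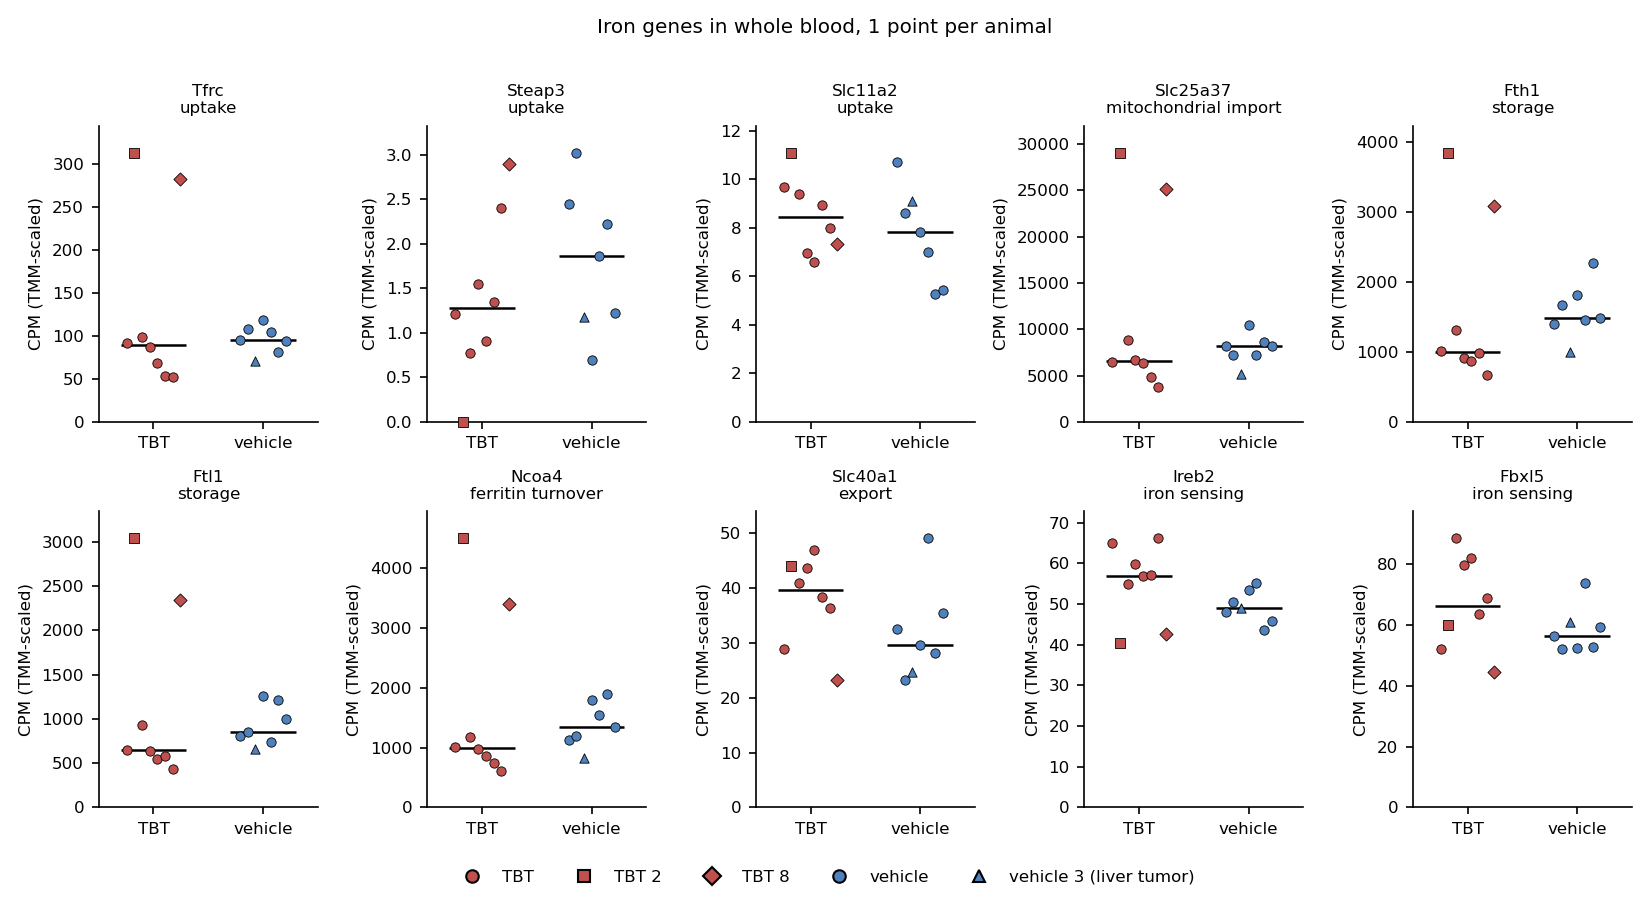
TMM-scaled CPM (y axis, from 0) of the 10 iron genes in each TBT and vehicle animal, with 1 point per animal and a line at the group median. TBT 2 and TBT 8 (square and diamond) lie above all vehicle animals for Tfrc, Slc25a37, Fth1, Ftl1 and Ncoa4, while the other 6 TBT animals lie within or under the vehicle range for Fth1.

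Tfrc (ENSMUSG00000022797, chromosome 16, 32608920 to 32632794, plus strand) encodes transferrin receptor 1, which takes up transferrin-bound iron and carries the 4 hairpin matches printed above. In TBT its lowest, median and highest levels were 52.2, 89.4 and 313 CPM, against 71.3, 94.8 and 118 CPM in vehicle. The top of the TBT range came from TBT 2 at 313 and TBT 8 at 283 CPM, whereas the other 6 TBT libraries lay between 52.2 and 98.4 CPM, 5 of them below the vehicle median. The mean was 131 ± 105 CPM over the 8 TBT animals (mean ± SD), against 95.9 ± 16.04 CPM over the 7 vehicle animals. The log2 fold change was 0.44 (SE 0.379, 95% interval -0.36 to 1.25, edgeR adjusted p = 0.932).

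Steap3 (ENSMUSG00000026389, chromosome 1, 120190757 to 120272705, minus strand) encodes the reductase that turns endosomal ferric iron into ferrous iron. It was the least abundant of the genes, at 0, 1.28 and 2.89 CPM (lowest, median, highest) in TBT and 0.692, 1.86 and 3.02 CPM in vehicle. The 0 was TBT 2 and the highest TBT value was TBT 8, so the libraries that stood together for Tfrc stood at opposite ends here. The counts behind these values ran from 0 to 38 per library, and the log2 fold change of -0.35 (SE 0.396, 95% interval -1.18 to 0.49, edgeR adjusted p = 0.964) is correspondingly imprecise. Slc11a2 (ENSMUSG00000023030, chromosome 15, 100387898 to 100425072, minus strand) encodes DMT1, which moves ferrous iron out of the endosome. Its levels were 6.59, 8.46 and 11.1 CPM in TBT and 5.27, 7.85 and 10.7 CPM in vehicle, almost the same span. The means of 8.50 ± 1.55 CPM over the 8 TBT animals (SD), with 7.71 ± 1.98 CPM over the 7 vehicle animals, gave a log2 fold change of 0.12 (SE 0.162, 95% interval -0.22 to 0.46, edgeR adjusted p = 0.972). Gm5475, on the opposite strand of Slc11a2, held 3.08% as many counts, and whether reads were counted by strand is not given in the sources used here.

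Slc25a37 (ENSMUSG00000034248, chromosome 14, 69241848 to 69285112, minus strand) encodes mitoferrin-1, which carries iron into the mitochondria of red cell precursors for haem synthesis. In TBT it stood at 3763, 6540 and 29036 CPM (lowest, median, highest), against 5122, 8177 and 10484 CPM in vehicle. TBT 2 (29036) and TBT 8 (25120) lay above every vehicle library, and the other 6 TBT libraries lay between 3763 and 8821 CPM, 5 of them below the vehicle median. The mean was 11382 ± 9853 CPM over the TBT animals (SD, n = 8), against 7884 ± 1632 CPM over the vehicle animals (SD, n = 7). The log2 fold change was 0.53 (SE 0.499, 95% interval -0.52 to 1.58, edgeR adjusted p = 0.949). The SD of its log2 level was 1.07 in TBT and 0.317 in vehicle, where the medians over all tested genes were 0.399 in TBT and 0.304 in vehicle. The SD of the log2 level was also wider in TBT for Steap3 (1.23 in TBT, 0.649 in vehicle), Fbxl5 (0.340 in TBT, 0.178 in vehicle), Ireb2 (0.262 in TBT, 0.118 in vehicle), Ncoa4 (1.04 in TBT, 0.420 in vehicle), Ftl1 (1.03 in TBT, 0.357 in vehicle), Tfrc (0.996 in TBT, 0.250 in vehicle) and Fth1 (0.911 in TBT, 0.362 in vehicle), but not for Slc40a1 (0.345 in TBT, 0.359 in vehicle) or Slc11a2 (0.255 in TBT, 0.372 in vehicle). In CPM without TBT 2 and TBT 8, the SD was smaller in TBT for Fth1 (210 in TBT, 392 in vehicle). The same held for Ftl1 (167, 234), Ncoa4 (201, 381) and Steap3 (0.582, 0.819). It was still larger in TBT for Tfrc (19.9, 16.04), Slc25a37 (1728, 1632), Ireb2 (4.64, 4.05) and Fbxl5 (13.5, 7.64). None of these differences in spread was tested.

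Fth1 (ENSMUSG00000024661, chromosome 19, 9980598 to 9985098, plus strand) encodes the ferritin heavy chain, the subunit that oxidizes iron for storage. It stood at 670, 999.7 and 3850 CPM in TBT and 1007, 1491 and 2270 CPM in vehicle. TBT 2 at 3850 and TBT 8 at 3092 CPM exceeded every vehicle library, but all of the other 6 TBT libraries, at 670 to 1308 CPM, were below the vehicle median. These opposite positions gave means of 1588 ± 1193 CPM over the 8 TBT animals (mean ± SD), against 1589 ± 392 CPM over the 7 vehicle animals, and a log2 fold change of -0.0011 (SE 0.389, 95% interval -0.82 to 0.82, edgeR adjusted p = 0.999).

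Ftl1 (ENSMUSG00000050708, chromosome 7, 45457944 to 45459884, minus strand) encodes the ferritin light chain, which helps to form the iron core inside the shell. Its levels were 439, 645 and 3041 CPM in TBT and 661, 847 and 1263 CPM in vehicle. Again TBT 2 (3041) and TBT 8 (2346) were above all vehicle libraries and 5 of the other 6 TBT libraries, at 439 to 936 CPM, were below the vehicle median. With means of 1148 ± 983 CPM over the TBT animals (SD, n = 8) and 931 ± 234 CPM over the vehicle animals (SD, n = 7), the log2 fold change was 0.30 (SE 0.415, 95% interval -0.57 to 1.17, edgeR adjusted p = 0.972). Ncoa4 (ENSMUSG00000056234, chromosome 14, 32159865 to 32179855, plus strand) encodes the receptor that delivers ferritin to autophagy and so frees its iron. It stood at 614, 997 and 4493 CPM in TBT and 818, 1339 and 1889 CPM in vehicle. TBT 2 (4493) and TBT 8 (3390) were above all vehicle libraries, and the other 6, at 614 to 1173 CPM, were all below the vehicle median. With means of 1659 ± 1450 CPM over the TBT animals and 1385 ± 381 CPM over the vehicle animals, its log2 fold change was 0.26 (SE 0.433, 95% interval -0.65 to 1.17, edgeR adjusted p = 0.979). Ferritin has near-identical copies in the genome, and reads shared with them are uncertain. The copy with the most counts, Ftl1-ps1, held 1366 over all libraries, 1.04% of the counts of Ftl1.

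Slc40a1 (ENSMUSG00000025993, chromosome 1, 45908068 to 45926523, minus strand) encodes ferroportin, the cellular iron exporter. Its levels were 23.1, 39.6 and 46.9 CPM in TBT and 23.2, 29.5 and 49.1 CPM in vehicle. On this scale TBT 2 (44.1) and TBT 8 (23.1) did not stand together, whereas as CPM of all counts both (17.8 and 12.2) were below the lowest vehicle library (20.6). Of the TMM-scaled values, 6 of the 8 TBT libraries were above the vehicle median while the groups spanned nearly the same range. The mean was 37.8 ± 8.12 CPM over the 8 TBT animals (mean ± SD), against 31.8 ± 8.69 CPM over the 7 vehicle animals, a log2 fold change of 0.25 (SE 0.166, 95% interval -0.10 to 0.60, edgeR adjusted p = 0.872).

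Ireb2 (ENSMUSG00000032293, chromosome 9, 54863789 to 54912530, plus strand) encodes iron regulatory protein 2, which binds the hairpins when iron is scarce. It stood at 40.3, 57.0 and 66.2 CPM in TBT and 43.5, 49.1 and 55.1 CPM in vehicle. TBT 2 (40.3) and TBT 8 (42.6) were below every vehicle library, and the other 6 TBT libraries, at 54.9 to 66.2 CPM, were above the vehicle median. The mean was 55.3 ± 9.44 CPM over the 8 TBT animals (mean ± SD), against 49.4 ± 4.05 CPM over the 7 vehicle animals, a log2 fold change of 0.17 (SE 0.110, 95% interval -0.06 to 0.40, edgeR adjusted p = 0.872). Fbxl5 (ENSMUSG00000039753, chromosome 5, 43744615 to 43821638, minus strand) encodes the ubiquitin ligase subunit that marks iron regulatory protein 2 for breakdown when iron is plentiful. It stood at 44.6, 66.1 and 88.4 CPM in TBT and 52.0, 56.4 and 73.5 CPM in vehicle. Although the groups overlapped, 6 of 8 TBT libraries lay above the vehicle median, and TBT 8 was the lowest of all. The means of 67.3 ± 15.3 CPM over the 8 TBT animals (SD), with 58.2 ± 7.64 CPM over the 7 vehicle animals, gave a log2 fold change of 0.21 (SE 0.139, 95% interval -0.08 to 0.50, edgeR adjusted p = 0.872). Bst1 overlaps Fbxl5 on the opposite strand and held 13.03% as many counts, so the reads of the pair may not have been told apart.

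All these levels depended on the scaling of TBT 2 and TBT 8. As CPM of all counts, with no scaling factor, Slc25a37 stood at 5929, 8437 and 13225 in TBT and 6355, 7738 and 9111 in vehicle. Fth1 stood at 1056, 1296 and 1628 CPM of all counts in TBT and 1369, 1554 and 1713 in vehicle, with 7 of 8 TBT libraries below the vehicle median and 4 below the lowest vehicle library. On this scale TBT 2 and TBT 8 no longer exceeded every vehicle library for Fth1, but still did for Tfrc, Slc25a37, Ftl1 and Ncoa4. Mean levels of Ncoa4 as CPM of all counts were 1308 ± 320 CPM over the 8 TBT animals (mean ± SD), against 1335 ± 183 CPM over the 7 vehicle animals, and for Ftl1 911 ± 220 CPM in TBT and 900 ± 66.5 CPM in vehicle. For Tfrc they were 106 ± 24.3 CPM in TBT and 95.6 ± 18.2 CPM in vehicle. For the genes of export and sensing, TBT 2 and TBT 8 were below every vehicle library on this scale. Ireb2 stood at 16.2 and 22.4 CPM of all counts in them, against a vehicle lowest of 31.9, and Fbxl5 at 24.1 and 23.5, against a vehicle lowest of 38.6. With no scaling factor the log2 fold changes were 0.35 for Ireb2, 0.36 for Fbxl5 and 0.39 for Slc40a1, against 0.17, 0.21 and 0.25 with TMM. In the same unscaled edgeR fit, Slc25a37 was at 0.22, Tfrc at 0.15, Ftl1 at 0.02 and Fth1 at -0.22 (adjusted p = 0.9999 each).

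**Figure D2:**
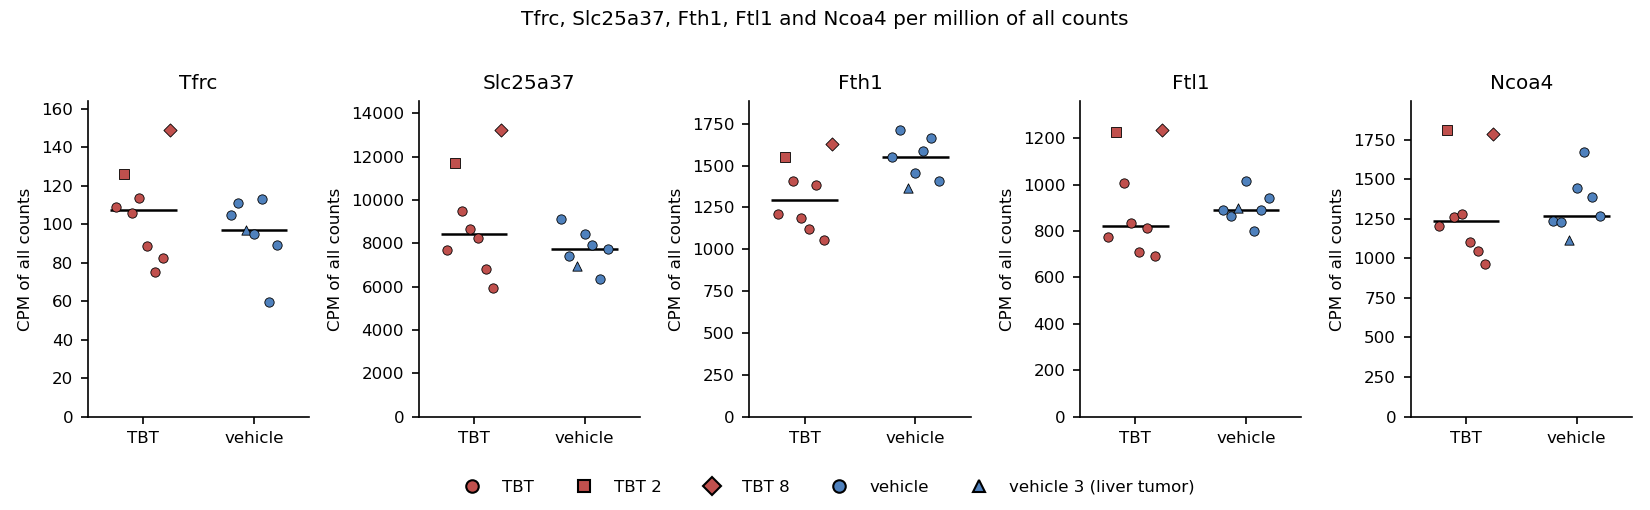
CPM of all counts with no scaling factor (y axis, from 0) for Tfrc, Slc25a37, Fth1, Ftl1 and Ncoa4 in each animal, with a line at the group median. For Fth1 the TBT median is 1296 and the vehicle median 1554, while for Slc25a37 TBT 8 reaches 13225, above the vehicle maximum of 9111.

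Without TBT 2 and TBT 8, a choice made after their values were seen, the log2 fold changes of Tfrc, Slc25a37, Fth1, Ftl1 and Ncoa4 were all negative. Leaving out TBT 2 alone already brought Slc25a37 to 0.18 and Tfrc to 0.13. Without both, Fth1 fell by 0.74 on the log2 scale (SE 0.186, edgeR adjusted p = 0.0425) and was the only iron gene past the threshold, where 462 of 13645 tested genes passed. Ncoa4 was at -0.64 (edgeR adjusted p = 0.0729), Ftl1 at -0.57 (0.0891), Slc25a37 at -0.37 (0.372) and Tfrc at -0.36 (0.228). Ireb2 stood on the positive side at 0.27 (edgeR adjusted p = 0.0525), Fbxl5 at 0.30 (0.134) and Slc40a1 at 0.29 (0.309). Leaving out vehicle 6 as well brought Fth1 to -0.63 (edgeR adjusted p = 0.0928) and the genes past the threshold to 7, none of them among the 10. Erythroid and platelet markers lay on the same side. The erythroid mean log2 CPM was 9.52 over the remaining 6 TBT libraries (range 8.72 to 10.21), against 10.1 over vehicle (9.78 to 10.32). The platelet mean was 7.01 over those 6 libraries (6.74 to 7.44), against 7.84 over vehicle (6.80 to 8.37). The part of these cells in the difference of Fth1 was not tested.

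**Figure D3:**
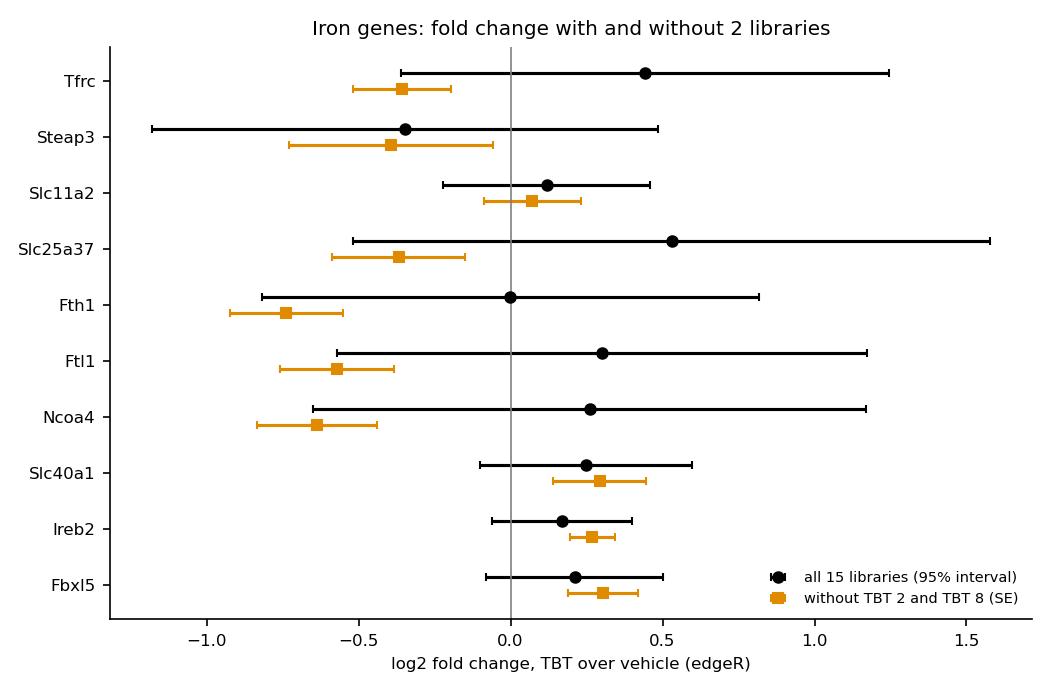
log2 fold change of TBT over vehicle (x axis) for each iron gene, with all 15 libraries (black, 95% interval) and without TBT 2 and TBT 8 (orange, bars of 1 SE). Tfrc, Slc25a37, Ftl1 and Ncoa4 cross from positive to negative, Fth1 moves to -0.74, and Slc40a1, Ireb2 and Fbxl5 stay positive.

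Ratios within a library do not depend on its scaling, and 3 were tested. All 3 were chosen with earlier results of these data known, which the adjustment over 3 ratios does not cover. The log2 ratio of Fth1 to Ftl1 counts was 0.34, 0.56 and 0.77 (lowest, median, highest) in TBT and 0.52, 0.81 and 0.99 in vehicle. All 8 TBT libraries lay below the vehicle median, although the ranges overlapped. The mean was 0.55 ± 0.14 over the 8 TBT animals (mean ± SD), against 0.77 ± 0.20 over the 7 vehicle animals, or 1.47 heavy chain counts per light chain count in TBT and 1.71 in vehicle. The difference of -0.22 passed a two-sided exact permutation test (p = 0.0306, Benjamini-Hochberg adjusted over 3 ratios p = 0.0459). It was lost without TBT 2 and TBT 8 (difference -0.16, exact permutation p = 0.111, adjusted p = 0.166), which had the lowest ratios of all. Leaving out 1 library at a time kept the call only without TBT 5, TBT 6 or vehicle 4. Without any of the other 12 (TBT 1, TBT 2, TBT 3, TBT 4, TBT 7, TBT 8, vehicle 1, vehicle 2, vehicle 3, vehicle 5, vehicle 6, vehicle 7) the difference was -0.25 to -0.18 and the adjusted p by the exact permutation test 0.0516 to 0.0984.

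Slc25a37 was set against the mean log2 level of the 19 erythroid markers found. This log2 ratio was 3.42, 3.61 and 4.08 in TBT and 3.11, 3.46 and 3.64 in vehicle. TBT 8 was highest, TBT 7 (3.74) and TBT 2 (3.70) were also above every vehicle library, and 1 of the 8 TBT libraries lay below the vehicle median. The mean was 3.64 ± 0.21 over the 8 TBT animals (mean ± SD), against 3.38 ± 0.19 over the 7 vehicle animals. The difference of 0.26 passed the two-sided exact permutation test (p = 0.0221, adjusted p = 0.0459), and was 0.18 without TBT 2 and TBT 8 (exact permutation p = 0.0787, adjusted p = 0.166). The call held without TBT 4, TBT 5, TBT 6 or vehicle 4. It was lost without any of the other 11 (TBT 1, TBT 2, TBT 3, TBT 7, TBT 8, vehicle 1, vehicle 2, vehicle 3, vehicle 5, vehicle 6, vehicle 7), with differences of 0.20 to 0.29 and exact permutation adjusted p of 0.0507 to 0.0984. Against erythroid markers without the haemoglobin genes the difference was 0.27 (exact permutation adjusted p = 0.0767). The log2 ratio of Tfrc to Slc25a37 was -6.39 ± 0.17 over the 8 TBT animals (mean ± SD), against -6.35 ± 0.24 over the 7 vehicle animals, a difference of -0.04 that did not pass (two-sided exact permutation p = 0.747, adjusted p = 0.747).

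**Figure D4:**
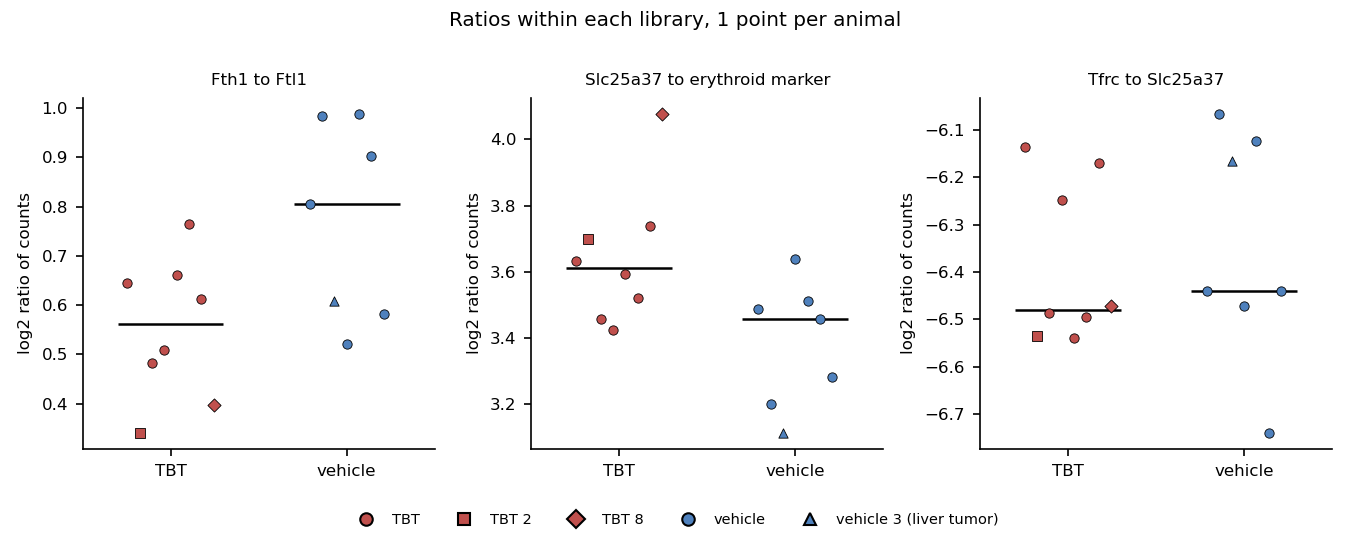
log2 ratios within each library (y axis, not from 0) of Fth1 to Ftl1, of Slc25a37 to the mean erythroid marker and of Tfrc to Slc25a37, with 1 point per animal and a line at the group median. For Fth1 to Ftl1 all TBT points lie below the vehicle median of 0.81, and TBT 2 and TBT 8 are the lowest.

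Per 100 counts of Slc25a37, a scale chosen after values were seen and not tested, Fth1 stood at 12.3, 14.3 and 20.3 in TBT and 17.1, 19.7 and 26.2 in vehicle. In 6 of the 8 TBT libraries it was below the lowest vehicle library, against 4 as CPM of all counts. Slc25a37 itself stood 0.26 higher in TBT on the log2 scale against the erythroid markers, and its part here was not tested. The other genes set on this scale overlapped more. Ftl1 stood at 8.60 to 11.96 in TBT and 9.76 to 14.0 in vehicle, Ncoa4 at 13.3 to 16.3 in TBT and 13.6 to 21.8 in vehicle, and Tfrc at 1.08 to 1.42 in TBT and 0.935 to 1.49 in vehicle.

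Across the libraries the iron genes other than Steap3 and Slc11a2 correlated with erythroid, platelet or neutrophil markers, directly or inversely. The share of all tested genes with such correlations is not given here, so they are not shown to be particular to iron genes. These correlations are of log2 CPM over 15 libraries that share their scaling factors, and each is followed by its value over 13 libraries without TBT 2 and TBT 8, which stand apart. With the mean of the erythroid markers, Pearson's r was 0.959 (0.920) for Slc25a37, 0.959 (0.890) for Ftl1, 0.935 (0.843) for Tfrc, 0.935 (0.819) for Ncoa4 and 0.929 (0.832) for Fth1. With the platelet markers r was 0.936 (0.856) for Fth1, 0.912 (0.784) for Ncoa4 and 0.893 (0.731) for Ftl1. It was 0.851 (0.596) for Slc25a37 and 0.820 (0.497) for Tfrc, so the erythroid and platelet lists were not cleanly separate here. Ireb2 ran the other way, at -0.842 (-0.738) with the erythroid markers and -0.798 (-0.6435) with the platelet markers. Slc40a1 and Fbxl5 followed the neutrophil markers instead, at 0.856 (0.896) and 0.853 (0.808). Slc40a1 also ran against the tissue macrophage markers, at -0.786 (-0.706). That mean held only the 3 of 7 tissue macrophage markers abundant enough to test. For Steap3 the highest r with any of the 9 marker lists was 0.582 (0.356), with tissue macrophage markers, beside 0.549 (0.527) with B cell markers. For Slc11a2 the highest was 0.302 (0.475), with T cell markers. Among the genes themselves, Ftl1 and Ncoa4 gave 0.973 (0.915), Slc25a37 and Tfrc 0.969 (0.861), Slc40a1 and Fbxl5 0.808 (0.825), and Fth1 and Ireb2 -0.863 (-0.767). Cells were not counted in these samples, and how far the cell mix sets these values was not tested.

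**Figure D5:**
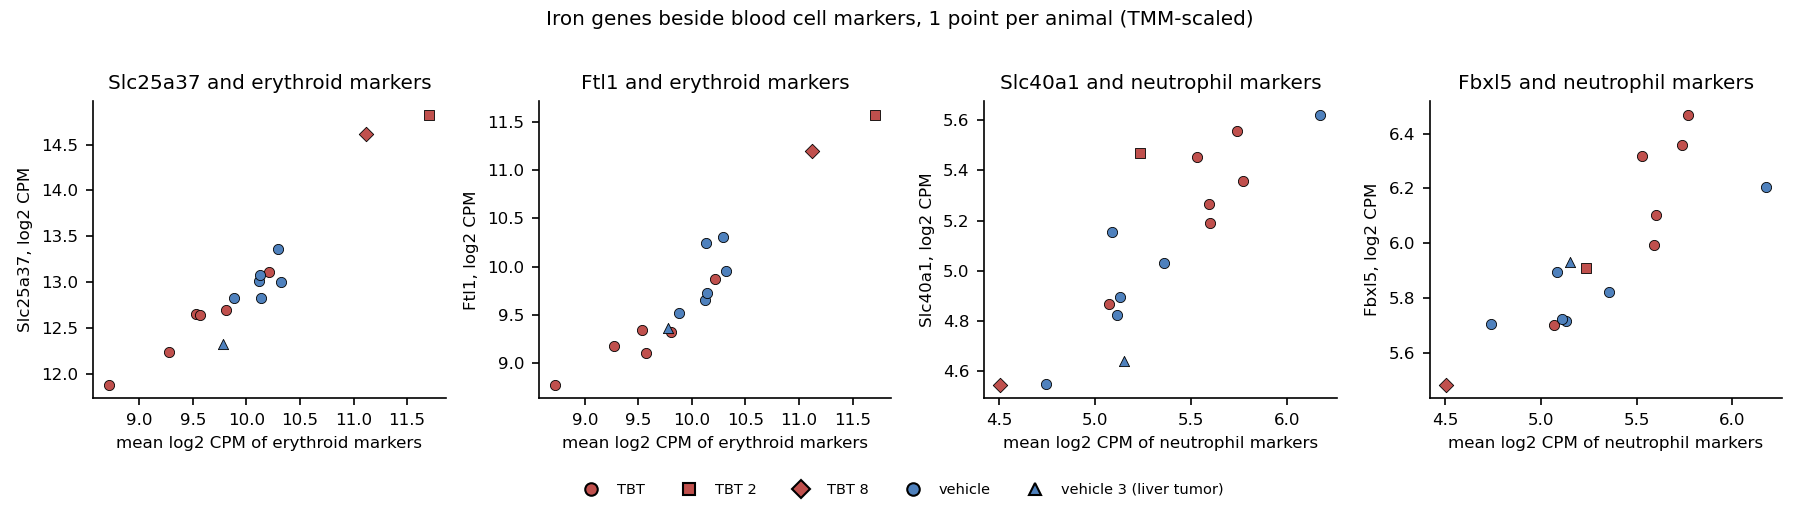
log2 CPM of Slc25a37 and Ftl1 against the mean log2 CPM of erythroid markers, and of Slc40a1 and Fbxl5 against neutrophil markers, with 1 point per animal. TBT 2 and TBT 8 extend the erythroid line upward to marker means of 11.71 and 11.12, while in the neutrophil panels TBT 8 lies at the lower end.

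The genes most like 5 of the iron genes were listed among 5901 protein-coding genes of at least 10 CPM, by Pearson's r of log2 CPM over the 15 libraries with the value over 13 libraries in brackets. Closest to Slc25a37 were Fech, which encodes the enzyme that inserts iron into haem, at 0.993 (0.981), Slc25a51 at 0.992 (0.974) and Sh3glb1 at 0.991 (0.969). Tfrc was closest to Rfk at 0.980 (0.928), Tspyl1 at 0.976 (0.899) and Ccni at 0.975 (0.894). Fth1 was closest to Optn at 0.983 (0.961), Taldo1 at 0.982 (0.967) and Ybx3 at 0.981 (0.956). Ftl1 was closest to March2 at 0.990 (0.968), Oaz1 at 0.989 (0.971) and Optn at 0.989 (0.981). Slc40a1 had a different company, led by the myeloid surface receptor gene Cd33 at 0.941 (0.942), then Mgea5 at 0.902 (0.874) and Dmxl2 at 0.890 (0.872).

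Beyond the 10, 63 further genes of iron handling were followed in 5 lists, and 44 were abundant enough to test. Of these 44, 0 passed the adjusted threshold in edgeR and 1 had an unadjusted p under 0.05, with 32 positive and 12 negative log2 fold changes, a median of 0.19 and a smallest adjusted p of 0.725. Over all 13364 tested genes 0% passed, 6.33% had an unadjusted p under 0.05 and 59.4% were positive, with a median of 0.05. Whether the lists differ from that background was not tested. DESeq2 and limma-voom also called 0 of them. In the list of other uptake genes 6 of 13 were tested, 5 positive and 1 negative (median 0.24), and the receptor Tfr2 was among those too low to test. Exoc6, needed for recycling of the transferrin receptor in red cell precursors, stood at 96.9 ± 48.7 CPM over the 8 TBT animals (mean ± SD), against 80.3 ± 16.6 CPM over the 7 vehicle animals, and its log2 fold change of 0.27 (edgeR adjusted p = 0.947) was -0.19 without TBT 2 and TBT 8. The metal importer Slc39a14 was at 0.23 (edgeR adjusted p = 0.964).

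Of 15 genes of mitochondrial iron and iron-sulphur cluster assembly 14 were tested, 9 positive and 5 negative (median 0.12). The cluster assembly gene Isca2 had a log2 fold change of -0.30 (edgeR adjusted p = 0.852). All 7 genes of iron chaperones and sensing were tested, 3 positive and 4 negative (median -0.01), with Aco1, which encodes iron regulatory protein 1, at -0.23 (edgeR adjusted p = 0.868) and the iron chaperone Pcbp1 at -0.09 (0.962). Of 14 export and hepcidin genes 5 were tested, 4 positive and 1 negative (median 0.23), with the signal transducer Smad4 at 0.16 (edgeR adjusted p = 0.827) and the receptor Bmpr1a at 0.48 (0.872), or 0.31 without TBT 8 and 0.19 without TBT 2 and TBT 8, while hepcidin itself, Hamp, was too low to test. Of 14 genes of haem iron and scavenging 12 were tested, 11 positive and 1 negative (median 0.31), with the haem exporter Flvcr1 at 0.32 (edgeR adjusted p = 0.839). Beside these lists, 59.4% of all tested genes were positive. Ltf, which encodes lactoferrin of neutrophil granules, had 0.316, 1.23 and 60.1 CPM in TBT and 0.232, 0.701 and 1.85 CPM in vehicle. The highest value was TBT 1, with the next library at 3.67 CPM. Its log2 fold change was 3.47 (edgeR unadjusted p = 0.0132, adjusted p = 0.725) and 0.88 in DESeq2 (adjusted p = 0.781). Ltf was the 1 pathway gene with an unadjusted p under 0.05. Without TBT 1, and likewise without TBT 4, TBT 7 or TBT 8, it was too low to test.

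The animal labelled with a liver tumor, vehicle 3, had the lowest level among the 7 vehicle libraries in 5 of the iron genes. These were Tfrc (71.3 CPM, against 80.9 in the next lowest vehicle library), Slc25a37 (5122 against 7256), Fth1 (1007 against 1404), Ftl1 (661 against 736) and Ncoa4 (818 against 1117). It was not lowest in the other 5. These are TMM-scaled values, and vehicle 3 had the highest TMM factor of the vehicle libraries (1.37). As CPM of all counts it was lowest for Fth1 (1369) and Ncoa4 (1113) and not for Tfrc (96.9, against 59.4 in vehicle 6), Slc25a37 (6962, against 6355 in vehicle 6) or Ftl1 (898, against 800.0 in vehicle 5). With 1 such animal, there was no test. Its haemoglobin share, 28.9%, and summed erythroid markers, 318315 CPM of all counts, were also the lowest of the vehicle libraries, and their part was not tested.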

How the data were processed

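The labels' protocols name RNeasy isolation, a DNase step and the Illumina TruSeq Stranded Total RNA kit. Per the submitters' processing notes, Trim Galore, HISAT2 and featureCounts were used with build mm10. Not given in the sources used here are the tool versions, the gene annotation used and whether counting went by strand. Per the file itself, the authors deposited unnormalized whole-number gene counts, which were used as deposited. All 55536 identifiers matched GENCODE M21 on GRCm38.

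The whole table was fitted with edgeR 4.0.16 in R 4.3.3 (TMM, filterByExpr by group, robust glmQLFit and glmQLFTest, no covariate, Benjamini-Hochberg over 13364 tested genes at 0.05), and only the iron genes are printed. The common biological coefficient of variation was 0.290 and the median 95% half-width of a log2 fold change 0.41. Ratios (with 0.5 counts added) were compared by exact permutation over the 6435 ways to divide the libraries into 8 and 7. Correlations use log2 CPM with a prior count of 2. Alternatives were other scalings and filters, DESeq2 1.42.0, limma-voom (limma 3.58.1), a replicate block, an erythroid covariate and libraries left out. The edgeR step was tested on simulated data. Within each group no library repeated another, since the most alike pair had a chi-square per gene of 9.71. Pairs of a TBT and a vehicle library were not checked.

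The 10 genes, the 5 pathway lists, the 9 marker lists and the tests were chosen with earlier results of these data known. The 10 genes are all named. Of each pathway list the 2 tested genes with the smallest edgeR p are named, and for likeness the 3 protein-coding genes with the highest r, leaving out Gm and Rik models. A gene that this rule names is not reported here. The erythroid marker Ahsp was not used. The deposited symbol of March2 had turned into a date, and it was named by its identifier.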

Additional observations from a re-analysis of the deposited data

Results flagged for a closer look

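Fbxl5 in vehicle 5 stood at 73.54 CPM (TMM-scaled), while the other 6 vehicle libraries lay between 52.0 and 60.9 CPM. The gap to its nearest neighbour was 0.590 of the group's range, above the 95% limit of Dixon's test for 7 values. This was 1 of 26 groups checked, and chance marks about 1 in 20 groups. Without vehicle 5 the log2 fold change of Fbxl5 was 0.27, against 0.21 with all libraries.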

How the results depend on the processing

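With each library left out in turn, edgeR called 0 genes, 0 iron genes and 0 of the other pathway genes each time. The other pathway genes past the threshold stayed at 0 under every setting run, and the iron genes at 0 except for 1 without TBT 2 and TBT 8, a setting chosen after seeing the data. Over all genes the count was 2 with no filter on low counts, 19 in DESeq2, 22 in limma-voom, 40 with an erythroid covariate, 7 without TBT 2, TBT 8 and vehicle 6, and 462 without TBT 2 and TBT 8. Fold changes on the log2 scale changed sign as follows. Without TBT 2 and TBT 8 they were -0.36 for Tfrc, -0.37 for Slc25a37, -0.57 for Ftl1, -0.64 for Ncoa4 and -0.19 for Exoc6, and without vehicle 6 as well -0.39, -0.34, -0.49, -0.54 and -0.18. In limma-voom they were -0.25, -0.22, -0.41, -0.44 and -0.10 for the same genes and -0.038 for Slc11a2. Fth1, at -0.0011 in the main comparison, was at 0.0188 with RLE factors, 0.0190 in DESeq2, -0.61 in limma-voom (unadjusted p 0.0180, adjusted p 0.168), -0.45 with the replicate block, -0.17 with the erythroid covariate and -0.22 with no scaling factor. The erythroid covariate brought Tfrc to 0.23, Slc25a37 to 0.28 (SE 0.110, edgeR unadjusted p 0.0197, adjusted p 0.314), Ftl1 to 0.073 and Ncoa4 to 0.012. Bmpr1a was at 0.14 without TBT 2, TBT 8 and vehicle 6. With totals of all counts and no scaling factor, also chosen after seeing the data, Ncoa4 was at -0.030 and Pcbp1 at 0.014. Leaving out 1 library gave -0.32 (without TBT 2) to 0.10 (without vehicle 6) for Fth1, -0.079 to 0.40 for Ftl1, -0.13 to 0.36 for Ncoa4 and -0.040 to 0.33 for Slc39a14. Of 240 single-gene values under settings that leave out no single library, 24 changed sign and 215 kept their sign and side. The Fth1 to Ftl1 difference ranged from -0.26 to -0.18 with 1 library left out and was -0.14 without TBT 2, TBT 8 and vehicle 6, and -0.16 without TBT 2 and TBT 8. The Slc25a37 to erythroid marker difference ranged from 0.20 to 0.30 and was 0.19 and 0.18 under the same pair of settings, and 0.27 without haemoglobin markers. Tfrc to Slc25a37 ranged from -0.10 to 0.012 with 1 library left out (0.0019 without vehicle 5), and was 0.0040 without TBT 2 and TBT 8. With the replicate block, 1 gene in all and 0 iron genes passed, and the ratio differences were -0.20 (exact sign-flip adjusted p = 0.141) and 0.20 (0.164). In that block Tfrc was at -0.092, Slc25a37 at -0.090, Ftl1 at -0.27 and Ncoa4 at -0.31. There is no vehicle 8, so TBT 8 adds nothing to the contrast in that block. Its ratio differences are the same as those without TBT 8. The labels give nothing that pairs the animals, and same-numbered libraries correlated at -0.23 to 0.51 in their deviations, over 0.1 in 2 of 7 pairs, so the numbers were not taken as pairs. The cause of each change was not tested. Depth limits Steap3, with at most 38 counts in a library.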
